A study of Homo sapiens with 8 samples.

Results

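Small RNA processing and Argonaute function rest on a short chain of proteins, and 10 genes of that chain were followed here: DROSHA, DGCR8, XPO5, DICER1, TARBP2, PRKRA, AGO1, AGO2, TNRC6A and TNRC6B. They were chosen by name, and every probe annotated to one of these symbols was taken; the array annotation already uses AGO1 and AGO2, and 0 of its symbols read EIF2C. The 10 genes had 19 probes, of which 14 were detected on at least 4 of the 8 arrays, and each gene kept at least 1 probe. They are 10 of 17297 genes or unnamed probes tested. None of the 10 passed the test between the siHBO1 and siCTRL arrays, and the 95% confidence interval of each gene's main probe lay within 1.41-fold in either direction.

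The arrays measured mRNA in OVCAR-3, an established human ovarian carcinoma cell line. The siHBO1 group was transfected with siRNA against HBO1 and the siCTRL group with scramble siRNA, 4 arrays each, with total RNA taken 48 h after transfection. HBO1 (gene KAT7, older symbol MYST2) is a histone acetyltransferase, and the comparison asks which transcripts differ when it is knocked down. Both groups are cultured cells of 1 line, transfected with siRNA, and siRNA acts through the Argonaute step described here; an untransfected group was not analysed here. Whether each replicate was its own culture is not stated in the labels. The p-values thus reflect array-to-array spread, which may be technical.

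MicroRNAs start as long hairpin transcripts. The nuclear Microprocessor, made of the RNase III enzyme DROSHA and its RNA-binding partner DGCR8, cuts out the precursor hairpin, and exportin 5 (XPO5) carries it to the cytoplasm. There DICER1, with the double-stranded RNA-binding proteins TARBP2 and PRKRA, trims it to a short duplex, and an Argonaute protein keeps one strand and uses it to find target mRNAs, whose silencing the GW182 proteins TNRC6A and TNRC6B pass on to the deadenylation and decapping enzymes. Transfected siRNA joins this route at the Argonaute step.

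Between 20504 and 22111 probes were detected per array, 43.3% to 46.7% of all probes, and the median deposited intensity was 224 to 324. The epithelial and ovarian carcinoma markers EPCAM, KRT8, KRT18, CDH1, PAX8, WT1 and MUC16 were detected on all 8 arrays. PTPRC, PECAM1 and COL3A1, markers of leukocytes, endothelium and fibroblasts, were detected on 0 arrays, while COL1A1, a fibroblast collagen also used as a marker, was detected on 8. In bulk RNA, fewer cells of a type and less RNA per cell cannot be told apart. Both replicate 1 arrays stood apart from the other 6 on the first principal component, which held 58.2% of the variance. Without both of them, 0 of the 10 genes described below passed the test. The difference of TNRC6B moved most, from 0.06 to 0.241. Those of TARBP2, XPO5 and DROSHA moved from -0.08, -0.04 and -0.04 to 0.020, 0.000 and -0.085.

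KAT7, the targeted gene, was read by 1 probe, ILMN_1798187. In siCTRL replicates 1 to 4 the normalized log2 intensities were 7.67, 7.97, 7.93 and 7.35, and in siHBO1 replicates 1 to 4 they were 6.66, 6.86, 7.04 and 7.43. All later values are listed in the same replicate order. The array labelled siHBO1 replicate 4 lay within the control range, while the other 3 siHBO1 arrays lay below all controls. The difference was -0.73 (SE 0.19, 95% interval -1.16 to -0.30), with a limma adjusted p of 0.586 and an exact 2-sided permutation p of 0.0571, where 0.0286 is the smallest p that 4 against 4 arrays allow. KAT7 therefore did not pass the threshold, and every difference below compares groups by label. Without replicate 4 in both groups the KAT7 difference was -1.0.

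As background for the counts that follow, limma called 6 of the 17297 genes at an adjusted p under 0.05, which is 0.0347%, and 58 with the replicate number as a block, which is 0.335%. At an unadjusted p under 0.05 the shares were 3.79% without and 7.60% with the block. The groups did not overlap for 2.82% of genes. Against these shares, 0 of the 10 small RNA genes passed in either fit, 0 had an unadjusted p under 0.05 in either fit, and 0 had groups that did not overlap. Fitted probe by probe over 21377 kept probes, limma called 0 (0%), and 69 with the block (0.323%), while 3.70% had an unadjusted p under 0.05; 0 of the 14 kept probes of the 10 genes were among any of these. The median difference of the 10 genes was -0.03, beside -0.01 over all genes tested. Their differences ran from -0.16 for DICER1 to 0.15 for AGO1. A positive difference was found for 40% of them and for 47.8% of all genes tested. The median size of a difference, whatever its sign, was 0.05 for the 10 genes and 0.08 for all genes, and the median SE was 0.12 and 0.15. All values are normalized log2 intensities, which set arrays against each other for 1 probe and do not rank different probes.

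**Figure D1:**
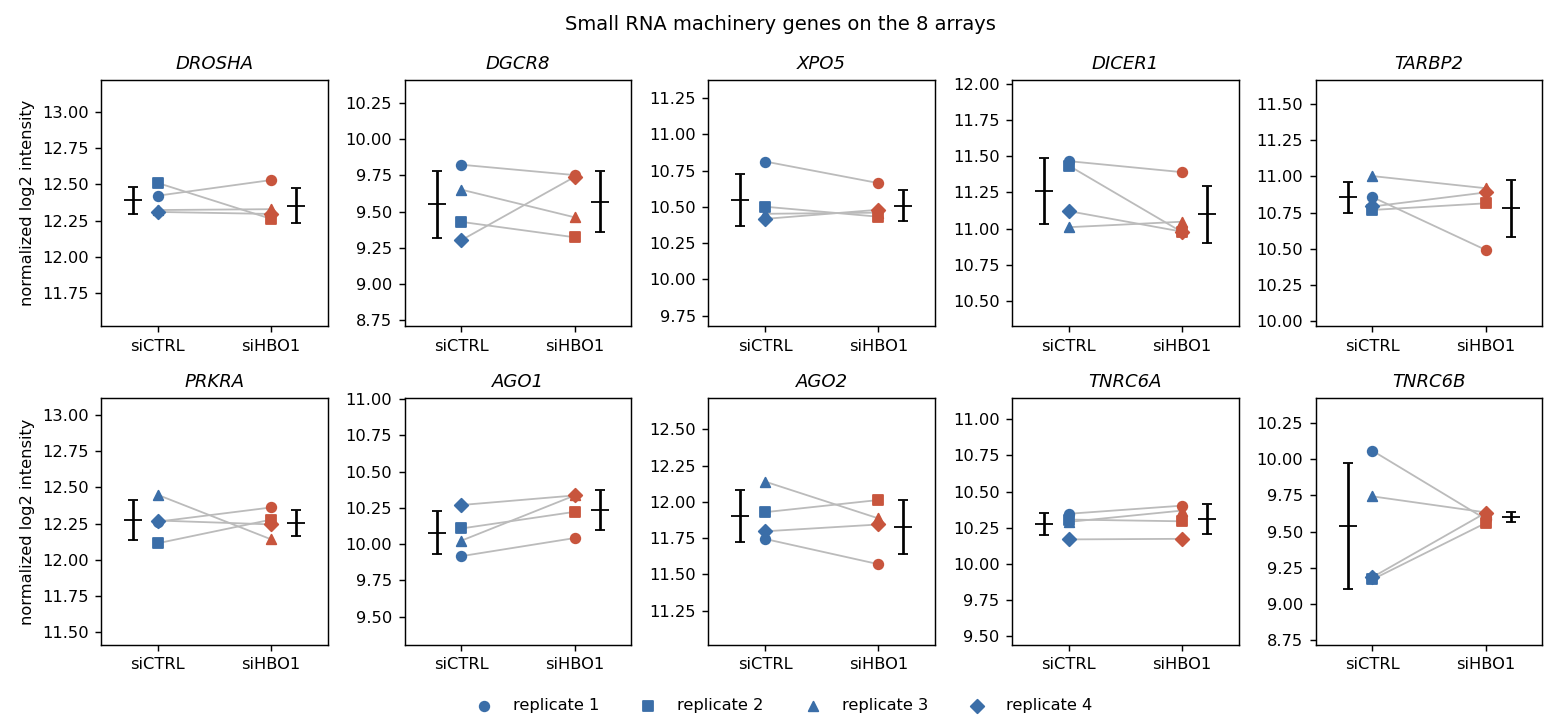
Normalized log2 intensity (vertical axis, each panel spanning the same number of log2 units) of the main probe of each of the 10 genes, with siCTRL in blue and siHBO1 in red. Each marker is 1 array, its shape gives the replicate number, grey lines join arrays of the same number, and the black bars are mean and SD (n = 4); in every panel the groups overlap.

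At their main probes, both Microprocessor genes differed between the groups by less than the SD within a group. DROSHA, the nuclease, was measured by ILMN_1790410 at 12.42, 12.51, 12.32 and 12.31 in siCTRL and 12.53, 12.26, 12.33 and 12.30 in siHBO1. The highest and the lowest of the 8 arrays were both siHBO1 arrays, replicates 1 and 2. The means were 12.39 ± 0.09 (SD, n = 4) and 12.35 ± 0.12 (SD, n = 4), a difference of -0.04 (SE 0.10, 95% interval -0.27 to 0.19, limma adjusted p 1.00). This interval bounds a decrease to 1.20-fold and an increase to 1.14-fold.

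A second DROSHA probe, ILMN_2152095, was near the detection limit and gave 6.69, 7.04, 7.17 and 6.78 in siCTRL and 7.03, 6.54, 6.28 and 6.27 in siHBO1. It was detected on 4 of 4 siCTRL arrays and 2 of 4 siHBO1 arrays. It was lower in siHBO1 in 3 of the 4 numbered pairs and higher in replicate 1, so the groups overlapped. Its difference of -0.39 (SE 0.19, 95% interval -0.81 to 0.03) was the most negative of the 14 kept probes and did not pass, with a limma adjusted p over all kept probes of 1.00, or 0.758 with the block. The 2 DROSHA probes thus gave -0.04 and -0.39, and the mean of both gave -0.21; the brighter one stands for the gene here.

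DGCR8, which anchors DROSHA on the hairpin, was read by ILMN_1694223 at 9.82, 9.43, 9.65 and 9.30 in siCTRL and 9.75, 9.32, 9.46 and 9.74 in siHBO1. The siHBO1 array was the lower of its pair for replicates 1, 2 and 3 and the higher for replicate 4. The difference was 0.02 (SE 0.15, 95% interval -0.32 to 0.36, limma adjusted p 1.00), and without replicate 4 in both groups it was -0.12.

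XPO5, the export receptor for precursor hairpins, was read by ILMN_1759495 at 10.81, 10.5, 10.45 and 10.42 in siCTRL and 10.66, 10.43, 10.46 and 10.48 in siHBO1. Both replicate 1 arrays were highest, and the other 6 lay between 10.42 and 10.5. The difference was -0.04 (SE 0.12, 95% interval -0.30 to 0.23, limma adjusted p 1.00).

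DICER1, the cytoplasmic RNase III enzyme, had the largest negative difference among the 10 main probes, and it was not separated from the spread of the arrays. ILMN_1772692 read 11.47, 11.44, 11.01 and 11.12 in siCTRL and 11.39, 10.98, 11.05 and 10.98 in siHBO1. Within siHBO1, replicates 2 to 4 lay between 10.98 and 11.05 while replicate 1 lay near the upper control arrays; within siCTRL, replicates 1 and 2 were high and 3 and 4 low. The difference was -0.16 (SE 0.15, 95% interval -0.49 to 0.17, limma adjusted p 1.00, or 0.828 with the block), which bounds a decrease to 1.40-fold and an increase to 1.12-fold.

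The second kept DICER1 probe, ILMN_2349831, read 11.40, 10.98, 11.35 and 11.11 in siCTRL and 11.36, 11.06, 10.76 and 10.88 in siHBO1. Its difference was -0.19 (SE 0.16, 95% interval -0.54 to 0.16), also lower in 3 of 4 pairs, though the pair that went the other way was replicate 2 here and replicate 3 for the first probe. The remaining DICER1 probes were below the detection filter: ILMN_1686725, detected on 1 array, differed by -0.16, and ILMN_1706100, detected on 0, by -0.09. All 4 values are negative, but the probes read the same RNA on the same arrays and are not replicates of one another.

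TARBP2, a DICER1 partner that also inhibits the double-stranded RNA-activated kinase PKR, was read by ILMN_1729767 at 10.86, 10.77, 11.0 and 10.79 in siCTRL and 10.49, 10.81, 10.92 and 10.89 in siHBO1. The lowest array was siHBO1 replicate 1, and the other 3 siHBO1 arrays lay inside the control range. The difference was -0.08 (SE 0.12, 95% interval -0.35 to 0.20, limma adjusted p 1.00). Its second kept probe, ILMN_2310253, gave -0.18 (SE 0.16, 95% interval -0.54 to 0.18).

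PRKRA, known as PACT, is the other DICER1 partner and activates the same kinase. Its probe, ILMN_1758474, read 12.26, 12.12, 12.45 and 12.27 in siCTRL and 12.36, 12.28, 12.14 and 12.24 in siHBO1. The control arrays included both the highest and the lowest value. The difference was -0.02 (SE 0.11, 95% interval -0.26 to 0.22, limma adjusted p 1.00).

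AGO1 had the largest positive difference of the 10. Its probe, ILMN_1671326, read 9.92, 10.11, 10.02 and 10.27 in siCTRL and 10.04, 10.22, 10.34 and 10.34 in siHBO1. It was the 1 gene of the 10 that was higher in siHBO1 in all 4 numbered pairs, yet siHBO1 replicates 1 and 2 lay below siCTRL replicate 4, so the groups overlapped. Of all genes tested, 15.7% had the same sign in all 4 pairs. The means were 10.08 ± 0.15 (SD, n = 4) and 10.23 ± 0.14 (SD, n = 4), a difference of 0.15 (SE 0.12, 95% interval -0.11 to 0.42, limma adjusted p 1.00, or 0.786 with the block).

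AGO2, the Argonaute that can cut a target by itself, was read by ILMN_1695719 at 11.74, 11.93, 12.14 and 11.80 in siCTRL and 11.57, 12.01, 11.89 and 11.84 in siHBO1. It was lower in siHBO1 for replicates 1 and 3 and higher for replicates 2 and 4. The difference was -0.07 (SE 0.13, 95% interval -0.37 to 0.22, limma adjusted p 1.00). The deposited AGO2 intensities ran from 2593 to 5218, far above the array medians.

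TNRC6A, a GW182 scaffold, was read by ILMN_1714622 at 10.35, 10.31, 10.29 and 10.17 in siCTRL and 10.40, 10.30, 10.37 and 10.17 in siHBO1. Replicate 4 was lowest in both groups. The difference was 0.03 (SE 0.10, 95% interval -0.19 to 0.25, limma adjusted p 1.00). A dimmer second probe, ILMN_1739573, gave 0.04, and ILMN_1752409, detected on 0 arrays, 0.10.

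TNRC6B, its paralog, was read by ILMN_1726786 at 10.06, 9.17, 9.74 and 9.18 in siCTRL and 9.59, 9.56, 9.63 and 9.63 in siHBO1. The 4 siHBO1 arrays lay close together in the middle of the control range, 9.54 ± 0.44 (SD, n = 4) for siCTRL against 9.60 ± 0.04 (SD, n = 4) for siHBO1. The difference was 0.06 (SE 0.19, 95% interval -0.37 to 0.50, limma adjusted p 1.00), and without replicate 1 in both groups it was 0.24, without replicate 4 in both groups -0.07. Its other probes, ILMN_1771201 and ILMN_1725739, were detected on 0 arrays and differed by -0.07 and -0.02.

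**Figure D2:**
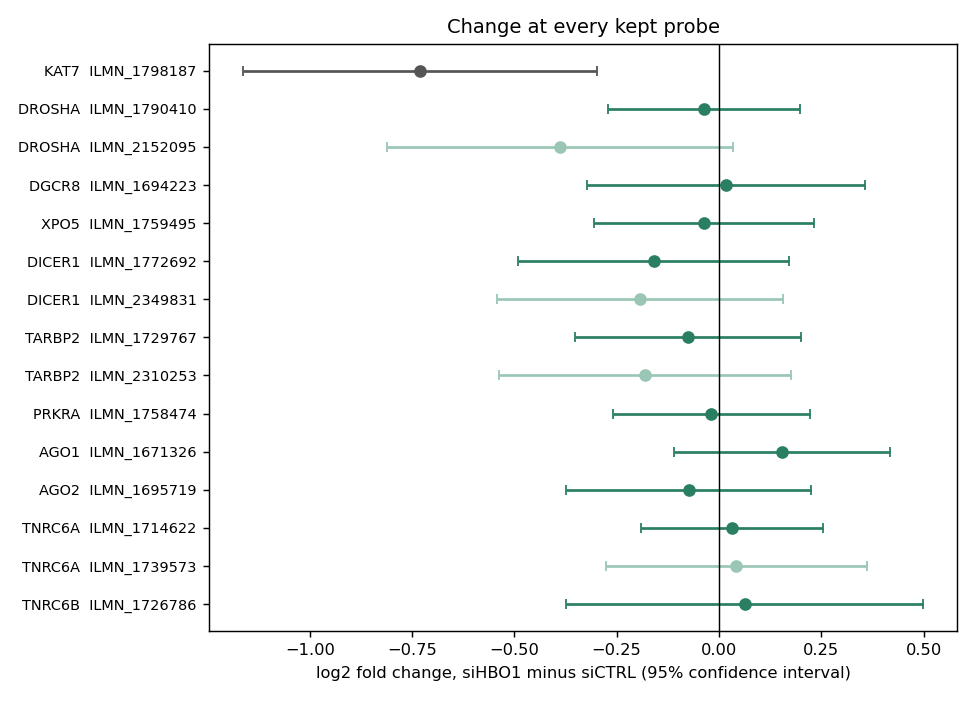
Log2 fold change, siHBO1 minus siCTRL, with its 95% confidence interval (horizontal axis) for the KAT7 probe and the 14 kept probes of the 10 genes; dark green marks the probe that stands for a gene, light green a further probe. The KAT7 interval lies below 0 and the intervals of the 14 probes all include 0, that of DROSHA ILMN_2152095 reaching from -0.81 to 0.03.

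Averaged over the 10 main probes, the log2 level per array was 10.97, 10.83, 10.91 and 10.76 for siCTRL replicates 1 to 4 and 10.88, 10.82, 10.86 and 10.86 for siHBO1. The siHBO1 arrays lay inside the range of the controls. Across the 8 arrays the genes did not move as a block: DROSHA and DICER1 correlated at r = 0.902, TARBP2 and AGO2 at 0.769, and XPO5 and AGO1 at -0.738. These correlations describe 8 arrays of which both replicate 1 arrays stood apart, and the probes share each array's normalization. The genes most like DICER1 over the 8 arrays were NFIB, CD320 and E2F4 (Pearson r 0.983, 0.970 and 0.960), and those most like AGO2 were ERI3, SPRED2 and NMB (0.967, 0.964 and 0.961).

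The pathway around the 10 genes was read from lists chosen with earlier results of these data known. Of the Argonaute and GW182 relatives, 2 of 7 were tested and 0 passed. AGO3 was -0.19 at one probe and 0.00 at a second, both detected on 8 arrays, TNRC6C was -0.01, and the AGO4 probe was detected on 0 arrays. PIWIL1 to PIWIL4, the germline Argonautes, did not pass the detection filter.

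Of the Microprocessor partners, 16 of 19 were tested and 0 passed, with 6 positive and 10 negative differences and a median of -0.04, beside -0.01 over all genes. KHSRP, which helps process let-7 precursors, was 0.15 and NCBP1, of the cap-binding complex, 0.11. SAFB2 was -0.11 and SAFB -0.07. All 5 nuclear export partners were tested, 0 passed and the median was -0.05; RAN, the GTPase that XPO5 uses, was -0.09 and its exchange factor RCC1 -0.12. RANBP1 was -0.05 and XPO1 0.02.

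Among RISC loading factors and partners, 19 of 22 were tested and 0 passed, 12 positive and 7 negative, with a median of 0.02. DDX20 was 0.30 (SE 0.19) and the helicase MOV10 0.13, both higher in siHBO1 in all 4 pairs. IPO8, an importin that binds Argonaute, was -0.14 and lower in all 4 pairs, and the co-chaperone STIP1 was 0.15 and higher in 3. Of the deadenylation and decapping genes, 27 of 29 were tested and 0 passed, 20 positive and 7 negative, with a median of 0.05. Over all genes tested, 47.8% were positive. Genes read on the same arrays share each array's normalization, so the signs within a list are not independent. DCP1A, a decapping cofactor, was 0.25 (SE 0.14). PABPC4, a poly(A)-binding protein, was 0.18 (SE 0.10) with groups that did not overlap, beside 2.82% of all genes. CNOT9, of the CCR4-NOT complex, was -0.23. XRN1, an exonuclease, was 0.17.

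All 12 small RNA tailing and turnover genes were tested and 0 passed, with a median of -0.03. TENT2, which adds nucleotides to the 3′ ends of mRNAs and microRNAs, was 11.41, 11.69, 11.28 and 11.70 in siCTRL and 11.99, 11.75, 11.79 and 11.92 in siHBO1. All siHBO1 arrays lay above all siCTRL arrays. Its difference was 0.34 (SE 0.13, limma adjusted p 1.00, or 0.505 with the block), and it was the 1 gene of this list with an unadjusted p under 0.05. ERI1, an exonuclease, also had groups that did not overlap, at 0.09. Over all genes tested, 3.79% had a limma unadjusted p under 0.05 and 2.82% had groups that did not overlap. TUT7 was 0.17 and PARN -0.13.

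The array read mRNA and not mature microRNA, so microRNA levels were not measured; what it offers is probes for hairpin genes, for host transcripts and for target mRNAs. The target list holds textbook targets of the let-7 and miR-200 families, chosen by gene name, and no transcript was searched for seed matches. The seed is bases 2 to 8 of the mature strand held by an Argonaute. Both families are shown because the list names their targets, with the seed in capitals and the sequences from RefSeq, GRCh38.p14:
hsa-let-7a-5p: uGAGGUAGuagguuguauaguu
hsa-let-7f-5p: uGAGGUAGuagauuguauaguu
hsa-miR-98-5p: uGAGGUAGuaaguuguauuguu
hsa-miR-200b-3p: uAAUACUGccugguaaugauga
hsa-miR-200c-3p: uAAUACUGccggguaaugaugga
hsa-miR-429: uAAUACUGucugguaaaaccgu
hsa-miR-200a-3p: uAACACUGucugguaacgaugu
hsa-miR-141-3p: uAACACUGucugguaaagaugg
The let-7 strands share GAGGUAG. The miR-200 family carries AAUACUG or AACACUG, depending on the member.

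Of 15 textbook targets of these families, 10 were tested and 0 passed, 4 positive and 6 negative, with a median of -0.04. ARID3B, a let-7 target, was 9.28, 9.22, 9.23 and 8.95 in siCTRL and 9.14, 8.87, 8.86 and 8.92 in siHBO1, a difference of -0.22 (SE 0.12) that was negative in all 4 pairs with overlapping groups. CDC25A, a cell cycle phosphatase, was 0.20 and MYC -0.14. IGF2BP2 was -0.07. ZEB1 and ZEB2, the main miR-200 targets, did not pass the detection filter, so the 10 tested genes do not cover the main targets of that family.

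Few hairpin probes were detected: 39 of 559 hairpin genes (6.98%) passed the filter. Together with 6 host transcripts they gave 45 microRNA genes tested, of which 0 passed, 26 positive and 19 negative, with a median of 0.04. MIR607 was 0.28 and MIR572 -0.36, and these were the 2 of 45 with a limma unadjusted p under 0.05, beside 3.79% of all genes. Both had low mean levels in siCTRL and siHBO1, 6.71 and 6.99 for MIR607 and 6.70 and 6.34 for MIR572. MIR572 was detected on 6 arrays. MIR1185-1 was -0.27. MIR345 was 6.64, 6.89, 6.86 and 6.81 in siCTRL and 7.02, 7.33, 6.92 and 6.93 in siHBO1, groups that did not overlap, with a difference of 0.25 (SE 0.12, limma adjusted p 1.00). Chosen after values were seen, for their shared let-7 seed, MIRLET7F1 was 0.08 and MIR98 -0.17. Of the 39 hairpin probes kept, 20 were detected on all 8 arrays. Groups that did not overlap were found for 2.82% of all genes tested, and the MIR345 levels were low. The mature strand of MIR345 is shown only because its hairpin groups lay apart, again with the seed in capitals:
hsa-miR-345-5p: gCUGACUCcuaguccagggcuc
Of the host genes of microRNAs, 13 of 20 were tested and 0 passed, with a median of -0.05; H19, which hosts miR-675, was -0.21 and CTDSP2, which hosts miR-26a-2, 0.14. SKA2 was -0.17 and NFYC -0.12.

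Genes that interferon induces are given as context, because TARBP2 and PRKRA regulate one of them, the kinase PKR (EIF2AK2). They were chosen with earlier results known. All 12 were tested, and their differences ran from 0.58 to 2.58, every one positive, around a median of 1.32. All 12 had a limma unadjusted p under 0.05 and groups that did not overlap, beside 3.79% and 2.82% of all genes tested. By limma 1 of the 12 passed the adjusted threshold, beside 0.0347% of all genes tested. It was RIGI, a sensor of viral RNA, with a difference of 1.10 (SE 0.12, limma adjusted p 0.0442). This call is not stable: 0 genes passed, RIGI included, in 12 of 21 alternatives, namely with median scaling, without normalization, with the authors' processed values, and without any array or numbered pair of replicates 2, 3 or 4. With the block 5 of the 12 passed, beside 0.335% of all genes tested. EIF2AK2 was 12.34, 12.71, 12.42 and 12.74 in siCTRL and 12.96, 13.39, 13.08 and 13.12 in siHBO1. Its groups did not overlap, and its difference of 0.58 (SE 0.14) had a limma adjusted p of 0.429, or 0.0816 with the block. IFIT1, an RNA-binding protein, was 10.06, 12.61, 11.73 and 12.57 in siCTRL and 13.53, 13.94, 13.68 and 13.93 in siHBO1. In the same arrays the PKR regulators TARBP2 and PRKRA differed by -0.08 and -0.02.

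**Figure D3:**
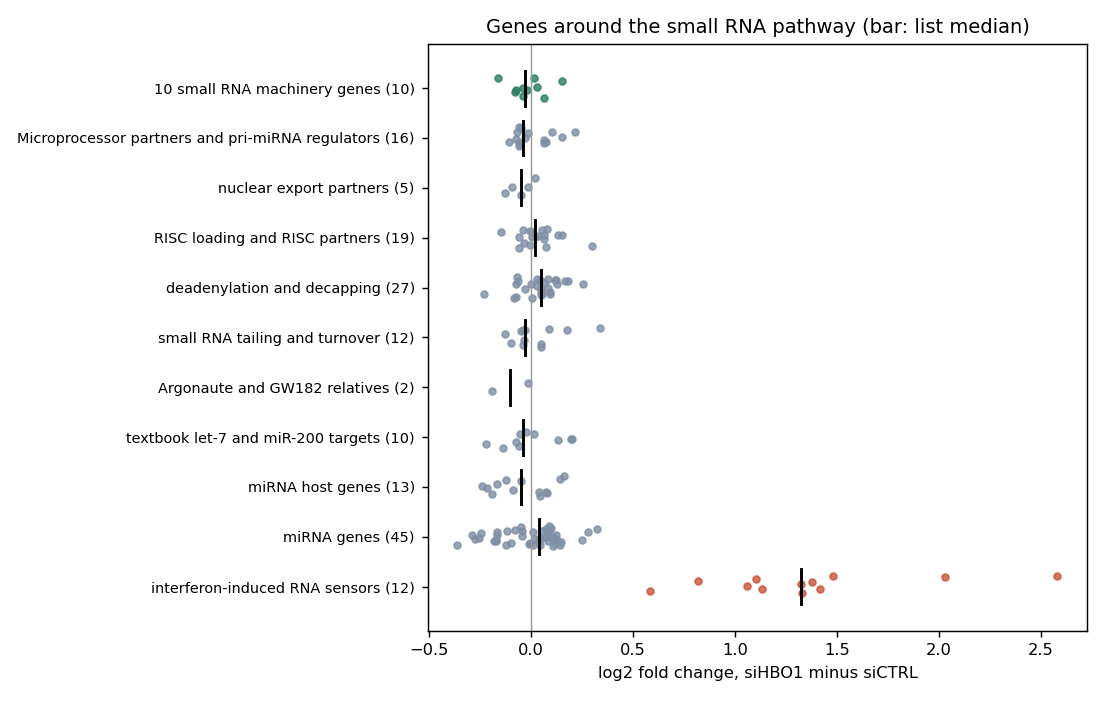
Log2 fold change, siHBO1 minus siCTRL (horizontal axis), of every tested gene in each list, with the number tested in brackets and a black bar at the list median; the vertical scatter within a row has no meaning. The 10 small RNA genes run from -0.16 to 0.15, the interferon-induced RNA sensors from 0.58 to 2.58.

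Promoters were compared for a strict form of the sequence that interferon response factors recognise. Both strands of each RefSeq promoter (GRCh38.p14, 250 bases before to 50 after the start) were searched for GAAA, then 2 bases of any kind, then GAAA. Of the 10 genes, 9 matched an entry, with 17 promoters, and 0 of the 17 held it; AGO2 had no entry. Of the 12 interferon context genes 9 matched, with 12 promoters, of which 9 (75%) held it. By gene, 7 of these 9 held it, while OAS1 and RIGI, the context gene that passed the main test, did not hold this form. The OAS1 and RIGI windows hold GAAACGAAA, a shorter spacing that the search did not count. A promoter without a match can thus still hold a related site. Of all 35116 promoters, 1255 (3.57%) did. Median GC content was 68% for the 17 promoters and 58.7% for all. A pair of these windows is printed, one from the interferon context and one from its regulator PRKRA. The EIF2AK2 window, chr2:37156931-37157230 on the minus strand, holds the motif in capitals, starting 6 bases before the transcription start:
EIF2AK2: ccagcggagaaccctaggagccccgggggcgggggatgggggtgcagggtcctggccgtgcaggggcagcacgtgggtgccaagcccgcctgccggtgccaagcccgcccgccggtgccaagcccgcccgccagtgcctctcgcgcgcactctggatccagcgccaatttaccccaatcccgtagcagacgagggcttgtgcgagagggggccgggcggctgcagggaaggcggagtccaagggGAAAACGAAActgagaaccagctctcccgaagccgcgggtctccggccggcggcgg
The PRKRA window, chr2:178450579-178450878 on the minus strand, is one of 3 for that gene and holds no copy:
PRKRA: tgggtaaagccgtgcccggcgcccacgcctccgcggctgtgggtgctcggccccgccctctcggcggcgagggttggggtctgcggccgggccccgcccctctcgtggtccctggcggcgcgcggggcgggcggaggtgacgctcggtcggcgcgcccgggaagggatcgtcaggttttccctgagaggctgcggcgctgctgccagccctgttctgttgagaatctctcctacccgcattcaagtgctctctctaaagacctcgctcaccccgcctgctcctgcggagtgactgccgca
A match describes letters in the window and not a bound site.

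**Figure D4:**
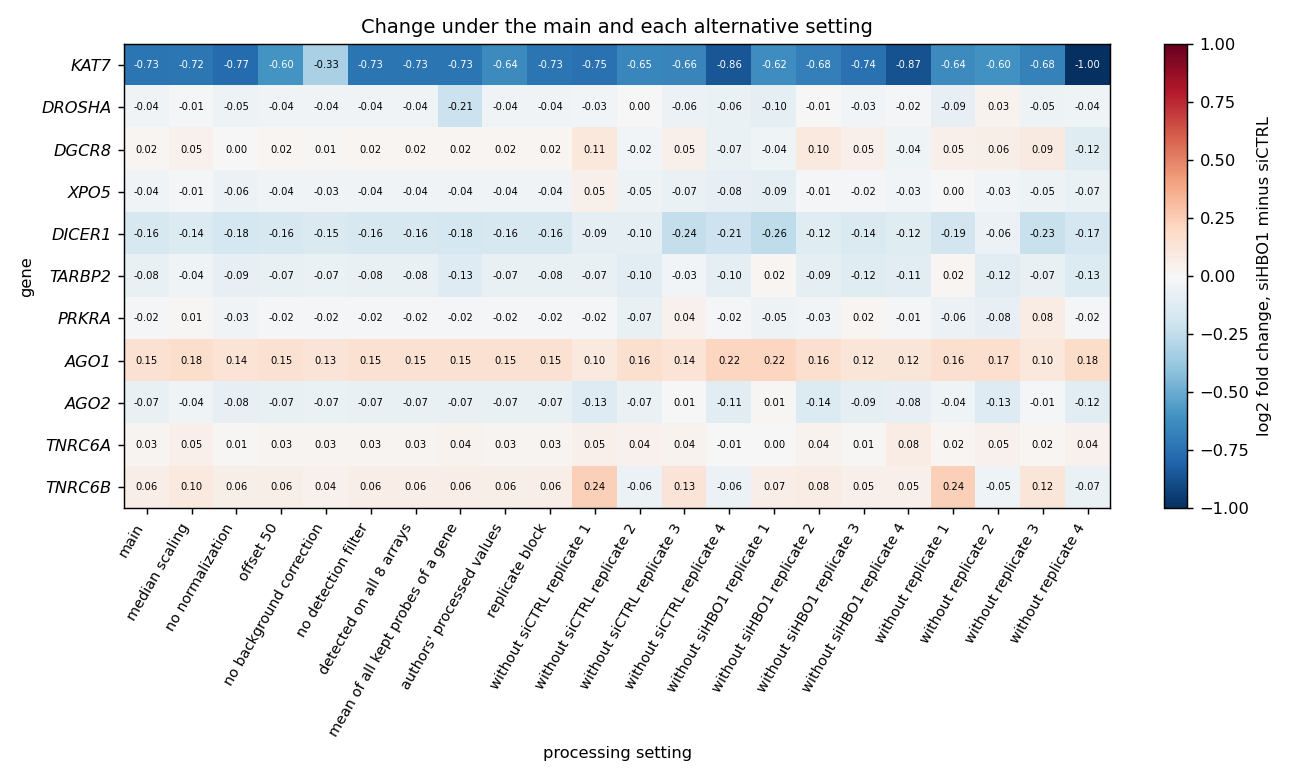
Log2 fold change, siHBO1 minus siCTRL (colour and printed value), of KAT7 and the 10 genes (rows) under the main setting and 21 alternatives (columns). KAT7 is negative throughout, DICER1 negative and AGO1 positive throughout, and the other 8 genes change sign under at least 1 alternative, none past the threshold.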

How the data were processed

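Per the labels, RNA from OVCAR-3 cells was measured on 8 single-colour Illumina arrays, 4 siHBO1 and 4 siCTRL, grouped by sample title. Each deposited intensity is linear and neither background-corrected nor normalized, with a detection p-value deposited beside it. The authors also deposited processed values, log2 or variance-stabilised (which is not stated), used as an alternative. GenomeStudio and lumi are named in the submitters' processing notes; for their roles and versions, and for the array's genome build, the sources used here give nothing.

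Intensities of 47312 probes were corrected with nec (limma 3.58.1, normexp from detection p, offset 16), put on the log2 scale and quantile-normalized (R 4.3.3; data.table package, version 1.17.8). Probes with detection p under 0.05 on at least 4 arrays were kept (21377), and a gene was its brightest kept probe (17297 genes, of which 5075 are probes without a listed symbol). The annotation gives 30108 probes a single symbol, 8 several and 17196 none, and 30069 matched RefSeq by Entrez identifier. Groups were compared with lmFit and eBayes of limma, 2-sided, Benjamini-Hochberg adjusted over all genes, threshold 0.05. The code was tested on simulated data. The number of arrays limits the precision.

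Every probe of the 10 genes is named, with KAT7, EIF2AK2, IFIT1, the tested members with the smallest p of each other pathway list (up to 4 a list), the 3 genes most correlated with DICER1 and with AGO2, and list members chosen after their values were seen (RIGI, MIRLET7F1 and MIR98). The members and lists were chosen with earlier results of these data known. Of 150 list symbols, 8 had no match and were not analysed here.

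Across genes, same-numbered arrays deviated from their group means together (r = 0.783, 0.324, 0.397 and 0.217 for numbers 1 to 4). All exceed 0.1, so the numbers were taken as pairs in the pair counts and in the replicate block, which is an alternative. Every SE and interval printed is from the fit without the block. Numbers 2 to 4 each had a higher r with some differently numbered array (0.404, 0.404 and 0.383). The labels do not say what a number shares. Alternatives were other scalings, offsets, filters and probe rules, the authors' processed values, the replicate block, and leaving out arrays.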

Additional observations from a re-analysis of the deposited data

How the results depend on the processing

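The 10 genes had 0 past the threshold, and 0 with an unadjusted p under 0.05, in all 21 alternatives, and the replicate block changed no call among them (lowest adjusted p 0.786). Of 210 values, 22 reversed sign. PRKRA turned to 0.009 with median scaling. Over the settings that leave out arrays, values ran from -0.079 to 0.078 for PRKRA, -0.089 to 0.052 for XPO5, -0.095 to 0.034 for DROSHA, -0.123 to 0.108 for DGCR8, -0.065 to 0.241 for TNRC6B, -0.136 to 0.012 for AGO2, -0.005 to 0.077 for TNRC6A and -0.134 to 0.020 for TARBP2. DICER1 (-0.257 to -0.060) and AGO1 (0.10 to 0.218) kept their sign in all 21. The median of the 10 ran from -0.067 to 0.020 over these settings, and KAT7 from -1.0 to -0.605; without background correction KAT7 was -0.327, and it passed the threshold in none of the 21.

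The count of limma calls over all genes, 6 with 655 at an unadjusted p under 0.05, was 0 with median scaling (367 unadjusted), 0 without normalization (169) and 0 with the authors' processed values (626). It was 11 with offset 50, 16 without background correction and 58 with the replicate block. Leaving out arrays gave 0 to 18 calls. It was 5 without either single replicate 1 array, 18 without replicate 1 in both groups, and 0 without any array, or pair, of replicates 2, 3 or 4 (427 to 675 unadjusted). The cause of these differences was not tested. Among the 14 kept probes of the 10 genes, 13 were detected on all 8 arrays and the second DROSHA probe on 6.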

Other observations

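The spread of TNRC6B differed between the groups, with an SD of 0.44 over the siCTRL arrays and 0.04 over the siHBO1 arrays; this difference in spread was not tested. The DICER1 level on siHBO1 replicate 1 was 11.39 and the next siHBO1 array 11.05, a gap that made up 0.826 of the group's whole range, just under Dixon's bound for groups of 4. None of the 30 groups of kept and targeted probes tested this way passed that bound.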
